A study of Mus musculus with 22 samples.

Results

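A set of 10 genes of the Hedgehog and bone morphogenetic protein (BMP) pathways were followed in colonic tissue of mice with dextran sodium sulfate (DSS) colitis. They were Ihh, Shh, Ptch1, Gli1, Hhip, Foxf1, Foxl1, Bmp4, Bmp2 and Grem1, taken by name from the 18194 genes to which the array annotation gives a probe set of their own. The 10 genes had 17 such probe sets, and each gene is described by its probe set with the largest interquartile range over the 22 arrays.

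The VC+ mice were PPAR γ flfl; Villin Cre+ and lack PPAR γ in intestinal epithelial cells, since the Villin promoter drives the Cre recombinase in those cells. The VC- mice were PPAR γ flfl; Villin Cre-, so that both genotypes carried the floxed alleles, in a mixed FVB/C57BL/6 background. The arrays covered day 0 (no DSS), day 2 and day 7 of 2.5% DSS in drinking water, with 3, 5 and 4 arrays of VC+ mice and 3, 3 and 4 arrays of VC- mice. RNA came from homogenised colonic tissue, and values are log2 signals after GC-RMA, so that a difference of 1 is a 2-fold difference.

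In the gut, Hedgehog ligands are made by the epithelium and act on the mesenchyme below it, where binding to the receptor Ptch1 releases the pathway and switches on Gli1, Ptch1 and Hhip themselves as target genes. Mesenchymal cells that receive the signal express the transcription factors Foxf1 and Foxl1 and secrete BMP ligands, which signal back to the epithelium and favour differentiation over proliferation. Antagonists such as Grem1, made by fibroblasts and muscle cells near the crypt base, bind BMP ligands and keep them from their receptors.

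Several arrays stood apart in other genes. Prss2, a pancreatic trypsinogen, was above 8 on 3 arrays, which were VC+ day 7 replicate 4, VC- day 0 replicate 3 and VC- day 7 replicate 2. VC- day 7 replicate 2 also had the lowest mean over 12 colonocyte markers, 10.17 against 11.91 to 13.24 on the other arrays, and the villin gene Vil1 was at 8.46 there. Xist, a non-coding RNA of female cells, was above 8 on 6 arrays of days 0 and 2 and on no array of day 7. Hoxb13, a homeobox gene of the distal colon, ran from 2.86 to 12.42 and was above 6 on 1 of 3, 4 of 5 and 1 of 4 VC+ arrays at days 0, 2 and 7, and on 3 of 3, 0 of 3 and 1 of 4 VC- arrays. The smooth muscle genes Actg2 and Myh11 were above 10.9 on all arrays although the labels name colonic mucosa. Pparg had 8.50 to 8.83 in VC+ and 9.58 to 9.63 in VC- at day 0, 6.87 to 9.54 in VC+ and 9.87 to 10.96 in VC- at day 2, and 6.26 to 10.35 in VC+ and 7.39 to 9.82 in VC- at day 7. At day 7 the arrays labelled VC+ replicates 1 and 2 were above every VC- array, so Pparg did not separate the labelled genotypes at that day; whether its probe set lies in the deleted part is not given in the sources used here.

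Hhip, in both genotypes, and Grem1, in VC- alone, were the members called at day 7 against day 0 in the main test given below. These calls depended on the arrays kept. Their promoters are shown because the results turn on them, each as the 300-base window, mostly upstream, around a transcript start in the RefSeq table for GRCm38.p6, 5′ to 3′ on the gene's strand. Capitals mark CCACCCA, the core of the GLI binding motif GACCACCCA. Of 32851 RefSeq promoters of this length, 9.303% held the core and 0.253% the full motif on either strand.
Hhip, chr8:80057959-80058258 (-): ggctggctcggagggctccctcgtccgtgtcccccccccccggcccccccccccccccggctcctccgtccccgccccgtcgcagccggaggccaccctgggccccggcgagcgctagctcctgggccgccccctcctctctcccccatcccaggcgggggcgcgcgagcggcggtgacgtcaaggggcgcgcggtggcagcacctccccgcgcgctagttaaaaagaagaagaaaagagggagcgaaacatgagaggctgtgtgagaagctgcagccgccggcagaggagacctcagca
Grem1, chr2:113758599-113758898 (-): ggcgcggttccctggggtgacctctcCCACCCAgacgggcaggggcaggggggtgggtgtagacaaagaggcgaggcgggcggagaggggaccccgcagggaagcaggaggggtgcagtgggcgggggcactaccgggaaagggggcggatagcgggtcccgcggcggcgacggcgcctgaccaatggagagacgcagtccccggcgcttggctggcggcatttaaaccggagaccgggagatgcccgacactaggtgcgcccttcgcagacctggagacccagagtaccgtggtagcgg
The Grem1 window held the core once, at position 27, and neither window held the full motif. The table also gave windows for Ihh, Ptch1 and Bmp4, without a match to either form.

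At day 7 against day 0, 1 of the 8 members tested was called in VC+ mice and 2 of 8 in VC- mice (limma, Benjamini-Hochberg adjusted p under 0.05). The background was 1.75% of the 9097 genes tested in VC+ and 10.6% in VC-. Hhip fell in both genotypes and Grem1 rose in VC-. In VC+ mice Grem1 was also higher on each day 7 array than on any day 0 array, but it did not pass the test. Gli1 and Foxl1 were outside the more variable genes by interquartile range, which alone were tested. Separate mice are not named for the arrays in the labels, and p-values therefore speak only of the spread among these samples, which may be technical.

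**Figure D1:**
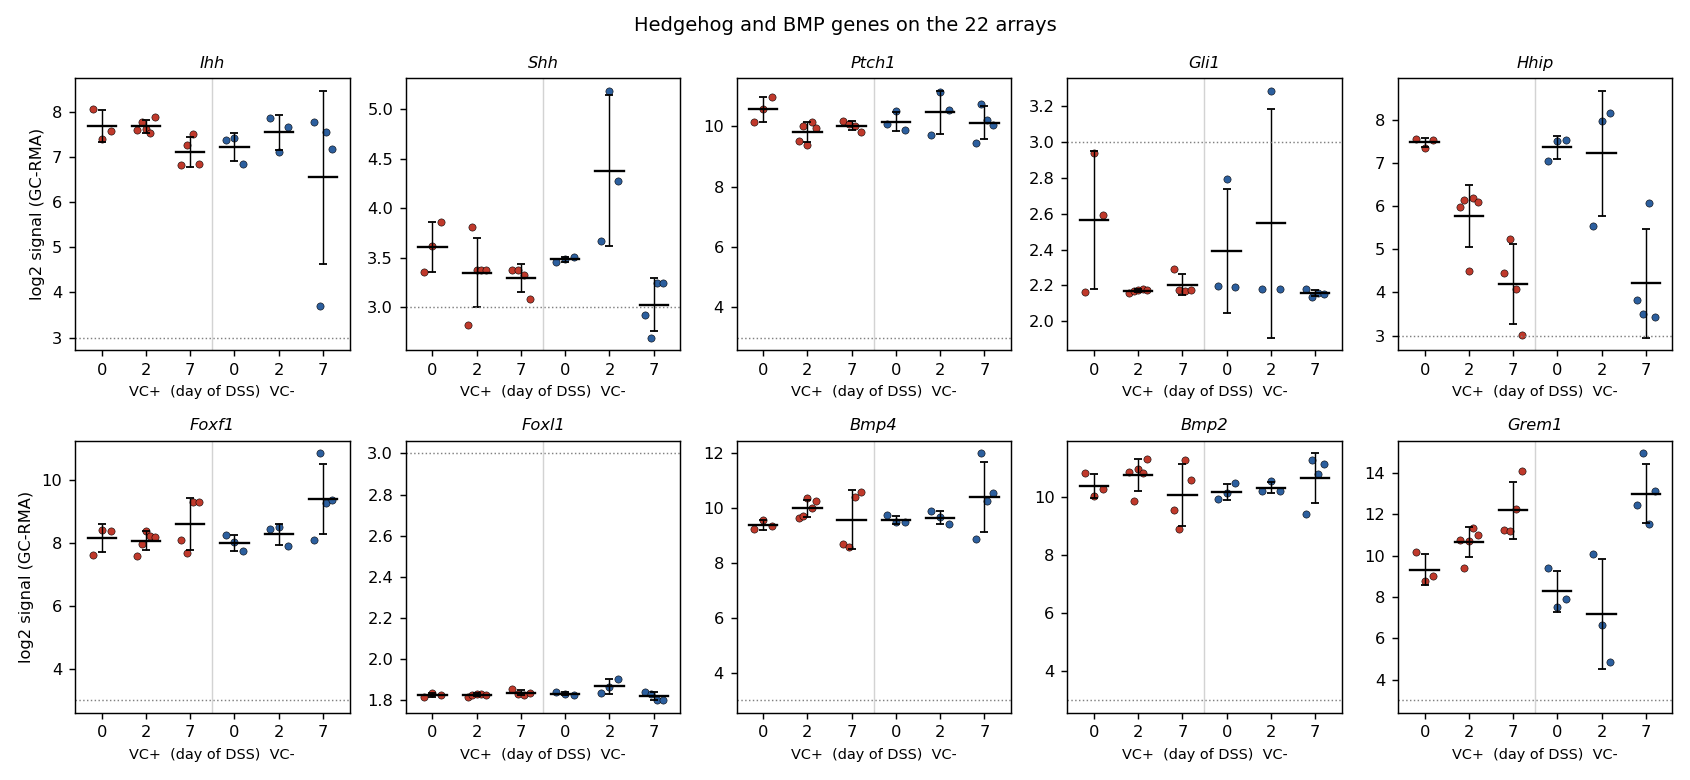
Log2 signal of the 10 genes on each array (points), with group means and SD (bars), VC+ in red and VC- in blue, by day of DSS on the horizontal axis; the dotted line marks a signal of 3. Hhip is lowest and Grem1 highest at day 7 in both genotypes, and Foxl1 stays at 1.80 to 1.90.

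Ihh, Indian hedgehog, is the main Hedgehog ligand of the colonic epithelium (chromosome 1, 74945315 to 74951672 in GRCm38.p6). Its signal was 8.07, 7.40 and 7.58 in VC+ at day 0, 7.60, 7.77, 7.62, 7.53 and 7.88 at day 2, and 6.83, 7.27, 7.51 and 6.84 at day 7. In VC- it was 7.38, 7.43 and 6.85 at day 0, 7.87, 7.12 and 7.66 at day 2, and 7.78, 3.71, 7.55 and 7.16 at day 7. Day 2 and day 7 each overlapped with day 0 of their genotype, and the genotypes overlapped at each day. In VC+ all day 2 arrays, at 7.53 or more, were above all day 7 arrays, at 7.51 or less, a comparison that was not tested. The array VC- day 7 replicate 2 lay more than 3 units below its group. The change at day 7 against day 0 was -0.57 ± 0.63 (SE; adjusted p = 0.760) in VC+ and -0.67 ± 0.63 (adjusted p = 0.462) in VC-. Without VC- day 7 replicate 2, where the colonocyte markers were lowest, the VC- change was 0.28 ± 0.25 (adjusted p = 0.503). The part of the epithelial markers in that low value was not tested, and in such whole tissue fewer cells of a type and less RNA per cell cannot be told apart.

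Shh, Sonic hedgehog, is the other epithelial ligand and is known mainly from the crypt base (chromosome 5, 28456840 to 28467101). Its main probe set was close to background, at 3.35, 3.62 and 3.86 in VC+ at day 0, 2.82, 3.81, 3.37, 3.37 and 3.38 at day 2, and 3.38, 3.38, 3.33 and 3.09 at day 7. The VC- arrays read 3.46, 3.49 and 3.51 at day 0, 3.67, 5.19 and 4.27 at day 2, and 2.92, 2.69, 3.24 and 3.25 at day 7. The VC- day 2 arrays were above and the VC- day 7 arrays below the VC- day 0 arrays, without overlap, but neither difference passed the test (0.89 ± 0.30, adjusted p = 0.923; -0.46 ± 0.28, adjusted p = 0.255). In VC+ mice no group was separate, and day 7 differed from day 0 by -0.32 ± 0.28 (adjusted p = 0.694). The other Shh probe set read 2.43 to 2.54 on every array.

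Ptch1, the receptor that holds the pathway off until a ligand binds and is itself a target gene, ranged from 9.38 to 11.13 (chromosome 13, 63508328 to 63573460). It was 10.15, 10.55 and 10.98 in VC+ at day 0, 9.50, 10.01, 9.38, 10.13 and 9.95 at day 2, and 10.17, 10.07, 10.02 and 9.81 at day 7. The signal in VC- was 10.08, 10.49 and 9.88 at day 0, 9.70, 11.13 and 10.53 at day 2, and 9.43, 10.75, 10.21 and 10.05 at day 7. All 5 VC+ day 2 arrays were below the 3 VC+ day 0 arrays, while the VC- groups overlapped. The day 2 change in VC+ was -0.77 ± 0.31 (adjusted p = 0.667), and the day 7 changes were -0.55 ± 0.33 in VC+ (adjusted p = 0.504) and -0.04 ± 0.33 in VC- (adjusted p = 0.945). The 95% interval of the VC- change at day 7 was -0.72 to 0.64. The other Ptch1 probe sets stayed between 1.80 and 2.29.

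Gli1, the transcription factor that is induced by Hedgehog signaling and amplifies it, was near background (chromosome 10, 127329882 to 127341579). Its signal was 2.14 to 3.29 over the 22 arrays, and 21 of them were under 3. The values above 2.3 were 2.94 and 2.59 on VC+ day 0 replicates 2 and 3, 2.79 on VC- day 0 replicate 2 and 3.29 on VC- day 2 replicate 2. No day 7 array reached 2.3, and the VC- day 7 arrays were below the VC- day 0 arrays without overlap. With all 18194 genes tested the day 7 change was -0.36 ± 0.22 in VC+ (adjusted p = 0.769) and -0.24 ± 0.22 in VC- (adjusted p = 0.458). A signal this low gives little room to measure a fall.

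Hhip encodes a membrane protein that binds Hedgehog ligands and so dampens the signal to the cells that express it (chromosome 8, 79965850 to 80058060). It was 7.56, 7.36 and 7.54 in VC+ at day 0, 5.98, 6.14, 4.50, 6.18 and 6.09 at day 2, and 4.45, 5.24, 4.08 and 3.02 at day 7. In VC- it was 7.05, 7.52 and 7.53 at day 0, 5.55, 7.97 and 8.16 at day 2, and 3.82, 3.51, 6.08 and 3.43 at day 7. Every day 7 array was below every day 0 array of its genotype; the VC+ day 2 arrays were also all below day 0, whereas 2 of the 3 VC- day 2 arrays were above it.

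At day 7 against day 0, Hhip fell by 3.29 ± 0.67 on the log2 scale in VC+ (9.78-fold lower, adjusted p = 0.0144) and by 3.16 ± 0.67 in VC- (8.91-fold lower, adjusted p = 0.0101). The 95% intervals were -4.68 to -1.90 in VC+ and -4.55 to -1.76 in VC-. The response of VC+ minus that of VC- was -0.13 ± 0.94 (adjusted p = 0.963; interval -2.11 to 1.84), where 0% of genes were called. At day 2 the change was -1.71 ± 0.64 in VC+ (adjusted p = 0.599) and -0.14 ± 0.71 in VC- (adjusted p = 1.00), with a difference of -1.57 ± 0.95 between them (adjusted p = 0.931).

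The other Hhip probe sets, called B, C and D in order of interquartile range, had lower signals and lower means at day 7 than at day 0. Probe set B was at 3.18, 3.17, 3.04 and 2.92 at day 7 against 4.98, 4.06 and 4.49 at day 0 in VC+, and at 3.17, 2.86, 3.13 and 2.93 at day 7 against 3.89, 3.68 and 4.41 at day 0 in VC-. No day 7 array overlapped with day 0 on it in either genotype. With every probe set of a single gene tested, its day 7 changes were -1.43 ± 0.30 (adjusted p = 0.0594) in VC+ and -0.97 ± 0.30 (adjusted p = 0.0923) in VC-. Those of probe set C were -0.60 ± 0.20 (adjusted p = 0.335) and -0.90 ± 0.20 (adjusted p = 0.0336), and those of probe set D, near background, -0.50 ± 0.44 (adjusted p = 1.00) and -0.87 ± 0.44 (adjusted p = 0.230). In that fit the main probe set had an adjusted p of 0.0661 in VC+ and 0.0323 in VC-. The mean of all 4 probe sets changed by -1.46 ± 0.29 (adjusted p = 0.0150) in VC+ and -1.48 ± 0.29 (adjusted p = 0.00816) in VC-.

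**Figure D2:**
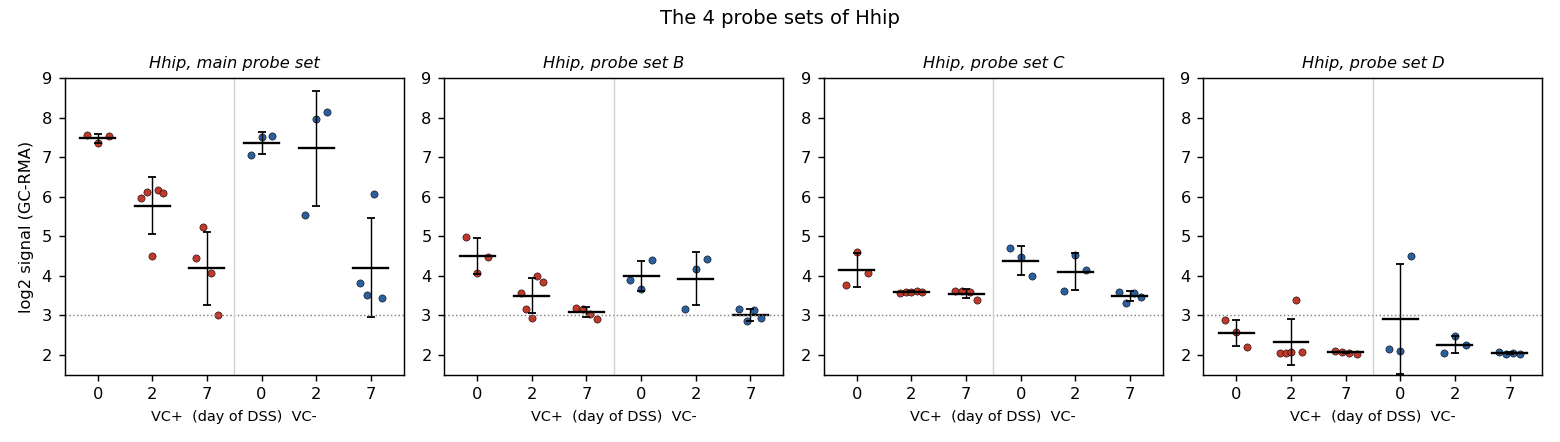
Log2 signal of the 4 Hhip probe sets on each array (points) with group means and SD, VC+ in red and VC- in blue, by day of DSS; the dotted line marks a signal of 3. Day 7 lies below day 0 in both genotypes on the left 3 panels, and the right panel is mostly under 3.

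Calls on Hhip depended on the arrays kept and on the groups in the fit. The VC+ call was lost without VC+ day 7 replicate 4 or any single VC+ day 0 array (highest adjusted p = 0.0726, without replicate 3) and the VC- call without VC- day 0 replicate 3 (adjusted p = 0.0557). All 8 day 7 arrays lacked Xist signal, and among the arrays without it the changes were -3.26 ± 0.76 in VC+ (adjusted p = 0.172) and -3.08 ± 0.76 in VC- (adjusted p = 0.101). The smooth muscle markers were lower on the day 7 arrays as well, by 0.02 to 1.26 in VC+ and 0.04 to 1.42 in VC- relative to the day 0 means, on average over 12 genes. With their mean as a covariate the Hhip changes were -3.67 ± 0.74 in VC+ (adjusted p = 0.0289) and -3.48 ± 0.72 in VC- (adjusted p = 0.0106). With Hoxb13 as a covariate they were -3.41 ± 0.68 in VC+ (adjusted p = 0.0144) and -3.38 ± 0.72 in VC- (adjusted p = 0.0145). When the fit held only the compared groups, Hhip was called in VC+ (adjusted p = 0.0400) and not in VC- (adjusted p = 0.147).

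Foxf1, a mesenchymal transcription factor and Hedgehog target, lies next to Foxl1 on chromosome 8 (121084386 to 121088154). It was 7.63, 8.42 and 8.39 in VC+ at day 0, 7.59, 7.97, 8.37, 8.21 and 8.20 at day 2, and 8.09, 7.68, 9.30 and 9.29 at day 7. In VC- mice it measured 8.24, 8.03 and 7.74 at day 0, 8.43, 8.50 and 7.90 at day 2, and 8.09, 10.84, 9.28 and 9.36 at day 7. At day 7 it was above the day 0 range on 2 of 4 VC+ arrays and 3 of 4 VC- arrays and within it on the others. The day 7 change was 0.45 ± 0.48 (adjusted p = 0.754) in VC+ and 1.39 ± 0.48 (adjusted p = 0.0653) in VC-. Without VC- day 7 replicate 1 the VC- change passed the test (1.82 ± 0.44, adjusted p = 0.00651), and without VC- day 7 replicate 2 it was 0.91 ± 0.41 (adjusted p = 0.183). A second probe set of Foxf1 read 4.69 to 4.89 on all arrays except VC- day 7 replicate 2, at 6.32.

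Foxl1, which marks the subepithelial telocytes that line the crypts, was at 1.80 to 1.90 on all 22 arrays (chromosome 8, 121127685 to 121130644). All values were well under 3, so its level could not be measured here.

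Bmp4 is the BMP ligand of the subepithelial mesenchyme (chromosome 14, 46383525 to 46390669). It was 9.23, 9.57 and 9.33 in VC+ at day 0, 9.62, 9.71, 10.34, 9.99 and 10.23 at day 2, and 8.69, 8.59, 10.38 and 10.58 at day 7. The VC- values were 9.72, 9.47 and 9.47 at day 0, 9.88, 9.65 and 9.40 at day 2, and 8.87, 11.97, 10.25 and 10.53 at day 7. The day 7 arrays fell on both sides of day 0 in each genotype, with VC+ replicates 1 and 2 and VC- replicate 1 below it and the other 5 above it. The change at day 7 was 0.19 ± 0.54 (adjusted p = 0.935) in VC+ and 0.85 ± 0.54 (adjusted p = 0.272) in VC-, and without VC- day 7 replicate 1 the VC- change was called (1.37 ± 0.48, adjusted p = 0.0409). Without VC- day 7 replicate 2 it was 0.33 ± 0.47 (adjusted p = 0.685), and without all 3 arrays with Prss2 signal 0.29 ± 0.49 (adjusted p = 0.786). At day 2 all VC+ arrays were above day 0 (0.60 ± 0.51, adjusted p = 0.967).

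Bmp2, a ligand made by differentiated epithelial cells and by macrophages of the gut wall, split in a similar manner (chromosome 2, 133552159 to 133562896). It was 10.83, 10.03 and 10.27 in VC+ at day 0, 10.88, 9.85, 10.98, 10.83 and 11.31 at day 2, and 9.55, 8.91, 11.28 and 10.57 at day 7. VC- arrays gave 9.92, 10.13 and 10.48 at day 0, 10.20, 10.55 and 10.22 at day 2, and 9.43, 11.28, 10.80 and 11.13 at day 7. VC+ replicates 1 and 2 and VC- replicate 1 were again the low arrays of day 7, below day 0. Unlike for Bmp4, VC+ replicate 4 was within the day 0 range, and the others were above it. The change at day 7 was -0.30 ± 0.49 (adjusted p = 0.856) in VC+ and 0.48 ± 0.49 (adjusted p = 0.498) in VC-.

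The same 3 arrays were the low ones of day 7 in mesenchymal markers. Relative to the day 0 mean of the genotype, the mean of 17 gut mesenchyme genes was 0.04 and -0.12 on VC+ replicates 1 and 2 and -0.04 on VC- replicate 1, and 0.92 and 1.47 on VC+ replicates 3 and 4 and 2.50, 0.85 and 1.33 on VC- replicates 2, 3 and 4. Foxf1 and Bmp4 thus differed among the day 7 arrays as these markers did. Hhip was lower and Grem1 higher on all 8, by unequal amounts. Grem1 was above the day 0 mean by 1.91, 1.89, 2.94 and 4.79 on VC+ replicates 1 to 4, the order of the mesenchyme mean. On VC- replicates 1 to 4 it was above by 4.20, 6.67, 3.24 and 4.84. Both peaked there on replicate 2, while Grem1 was lowest on replicate 3 and the mesenchyme mean on replicate 1. The part of mesenchymal cell content in the Foxf1, Bmp4, Bmp2, Grem1 and Hhip values was not tested.

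**Figure D3:**
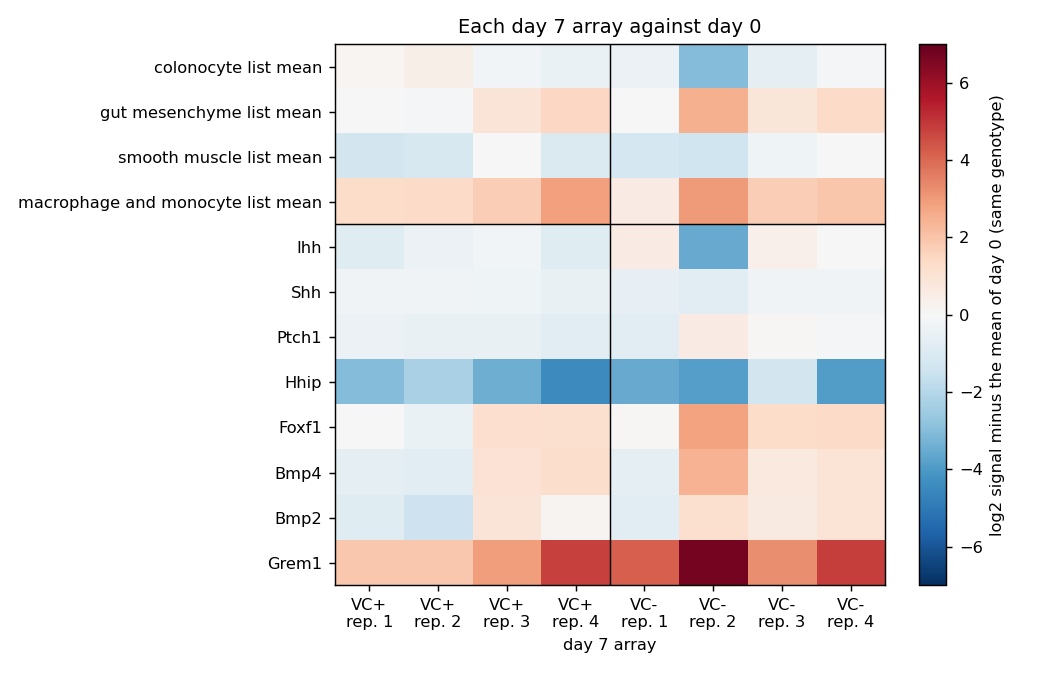
Heat map of the difference of each day 7 array from the day 0 mean of its genotype (log2 scale), for members and means of marker lists. Each column is 1 array, with VC+ arrays on the left and VC- arrays on the right. Red is above and blue below the day 0 mean. Hhip lies below 0 and Grem1 above 0 on all 8 arrays, while Foxf1, Bmp4, Bmp2 and the gut mesenchyme mean fall on both sides.

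Grem1, gremlin 1, binds BMP2 and BMP4 outside the cell (chromosome 2, 113748675 to 113758648). It was 10.17, 8.75 and 9.01 in VC+ at day 0, 10.76, 9.41, 10.73, 11.35 and 11.02 at day 2, and 11.22, 11.20, 12.25 and 14.10 at day 7. For VC- the values were 9.39, 7.51 and 7.90 at day 0, 10.08, 6.64 and 4.85 at day 2, and 12.46, 14.94, 11.51 and 13.10 at day 7. All day 7 arrays were above all day 0 arrays of their genotype, and the VC- day 2 arrays were spread over more than 5 units.

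Grem1 rose by 4.74 ± 0.99 at day 7 in VC- (26.6-fold, adjusted p = 0.0101; 95% interval 2.66 to 6.82). The VC+ difference was 2.88 ± 0.99 (7.38-fold, adjusted p = 0.177; interval 0.80 to 4.96). The difference between these responses, VC+ minus VC-, was -1.85 ± 1.40 (adjusted p = 0.672; interval -4.79 to 1.09). Day 0 differed by 1.04 ± 1.06 between VC+ and VC- (adjusted p = 0.959), so the responses start from unequal means of 9.31 in VC+ and 8.27 in VC-. The 2 highest values, 14.10 in VC+ replicate 4 and 14.94 in VC- replicate 2, were on the day 7 arrays with pancreatic Prss2. Without both, an alternative chosen after seeing the data, the change was 2.25 ± 0.92 (adjusted p = 0.293) in VC+ and 4.09 ± 0.92 (adjusted p = 0.0160) in VC-, and Hhip stayed called at -2.90 ± 0.67 (adjusted p = 0.0302) in VC+ and -2.92 ± 0.67 (adjusted p = 0.0178) in VC-. Without all 3 arrays with Prss2 signal, Grem1 in VC- was at 3.91 ± 1.06 (adjusted p = 0.0756) and Hhip in VC- at -2.84 ± 0.78 (adjusted p = 0.0781). Among arrays without Xist signal the Grem1 change in VC- was 4.36 ± 0.97 (adjusted p = 0.0779), and without VC- day 0 replicate 3 it was 4.55 ± 1.16 (adjusted p = 0.0581). It was also not called when the fit held only the VC- day 7 and day 0 arrays (adjusted p = 0.133), and it was called with Hoxb13 as a covariate (5.30 ± 1.04, adjusted p = 0.00928) or with the smooth muscle mean as one (5.41 ± 1.05, adjusted p = 0.00858).

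**Figure D4:**
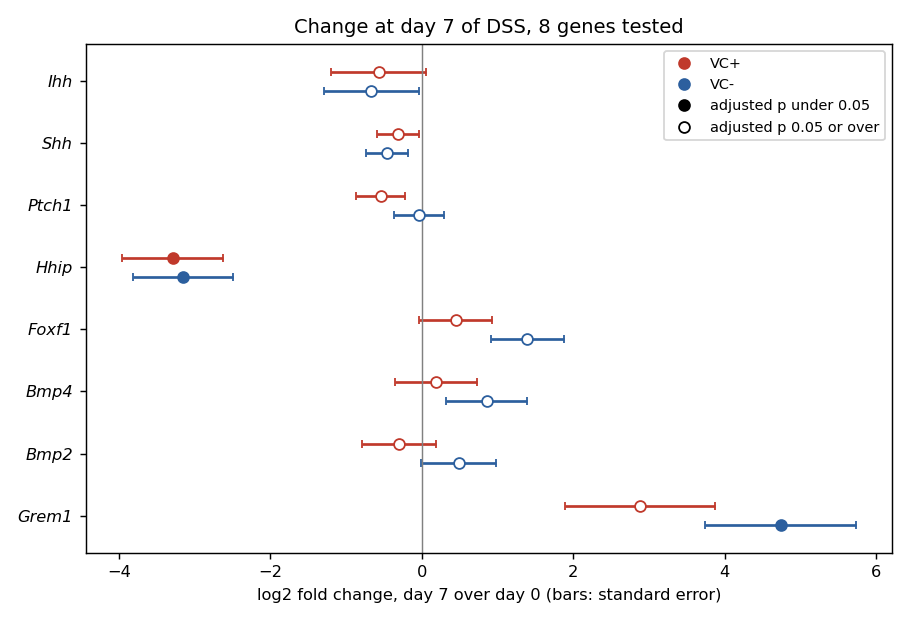
Log2 fold change at day 7 over day 0 with its standard error (bars) for the 8 genes tested, VC+ in red and VC- in blue; filled points have an adjusted p under 0.05. Hhip is filled in both genotypes and Grem1 in VC-.

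In counts of separation at day 7, Hhip was lower without overlap in both genotypes, and Shh was so in VC-. Over the genes tested, 8.61% were lower without overlap in VC+ and 12.3% in VC-. Grem1 was the member higher without overlap in each genotype, against 9.61% of genes in VC+ and 8.62% in VC-.

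At day 2 against day 0 none of the 8 members was called in either genotype, where 0.0550% of genes in VC+ and 0.0110% in VC- passed. At an unadjusted p under 0.05 there were 2 members in VC+ (Hhip and Ptch1) and 1 in VC- (Shh), where 6.57% of genes in VC+ and 4.58% in VC- passed that threshold. In VC+, Hhip and Ptch1 were lower and Bmp4 higher without overlap, against 6.27% of genes lower and 4.17% higher, and in VC- Shh was higher, against 7.83%.

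Between the genotypes no member was called at any day by limma. The background was 0.0110% at day 0, 0.0440% at day 2 and 0% at day 7. At an unadjusted p under 0.05 there were 4 members at day 2 and none at day 0 or 7, against 6.60% of genes at day 0, 12.3% at day 2 and 14.2% at day 7. At day 2 Grem1 averaged 10.66 ± 0.74 (SD, n = 5) in VC+ and 7.19 ± 2.66 (SD, n = 3) in VC-, a difference of 3.47 ± 0.95 (adjusted p = 0.235). At the same day Shh averaged 3.35 ± 0.35 in VC+ and 4.38 ± 0.76 in VC- (-1.03 ± 0.27, adjusted p = 0.235), Hhip 5.78 ± 0.72 in VC+ and 7.23 ± 1.45 in VC- (-1.45 ± 0.64, adjusted p = 0.365), and Ptch1 9.80 ± 0.33 in VC+ and 10.45 ± 0.72 in VC- (-0.66 ± 0.31, adjusted p = 0.399). In each of these genes VC- day 2 replicate 1 lay nearest the VC+ arrays. Without it Grem1 (4.91 ± 0.87, adjusted p = 0.00960) and Shh (-1.38 ± 0.26, adjusted p = 0.0146) were called. Without VC- day 2 replicate 2 the differences were 3.19 ± 1.11 for Grem1 (adjusted p = 0.723) and -0.62 ± 0.24 for Shh (adjusted p = 0.740), and without replicate 3 they were 2.30 ± 0.97 for Grem1 and -1.08 ± 0.31 for Shh (adjusted p = 0.802 for both).

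VC- day 2 replicates 2 and 3 had Xist signal, as had 2 of the 5 VC+ day 2 arrays, and replicate 1 had none. Among arrays without Xist signal, which leave VC- day 2 with replicate 1 alone, Grem1 differed by 0.22 ± 1.29, Shh by -0.34 ± 0.36, Hhip by -0.01 ± 1.01 and Ptch1 by -0.07 ± 0.43 at day 2 (adjusted p = 1.00 for each); the spread of that lone array is assumed to be that of the other groups. Smooth muscle markers split the day 2 arrays as Grem1 did. Their mean was 9.95 to 10.91 in VC+, and in VC- it was 10.34 on replicate 1 and 8.75 and 9.04 on replicates 2 and 3. All 12 smooth muscle genes were higher in VC+ than in VC- at day 2, with a median of 1.15, and 8 had an unadjusted p under 0.05 while none was called. With their mean as a covariate the Grem1 difference was 2.39 ± 1.14 (adjusted p = 0.999), and with Hoxb13, which was above 6 on 4 of 5 VC+ and 0 of 3 VC- arrays of that day, 2.55 ± 1.12 (adjusted p = 1.00).

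At day 7 the 95% intervals of VC+ minus VC- were -1.30 to 1.28 for Hhip, -2.74 to 1.12 for Grem1, -1.73 to 0.13 for Foxf1 and -1.89 to 0.20 for Bmp4. The interaction at day 2 called 0.0220% of genes and that at day 7 called 0%, and neither included a member (2 at an unadjusted p under 0.05 at day 2, Shh and Ptch1, and none at day 7, against 6.46% of genes at day 2 and 8.48% at day 7).

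The epithelial ligand was then set against the stromal genes over the arrays. With group means removed, Ihh correlated with Foxf1 at r = -0.65 and rho = -0.34 (22 arrays, permutation within groups, p = 0.0734 and 0.179, adjusted 0.294 and 0.524). Without VC- day 7 replicate 2, the array farthest from its group mean in Ihh, r was -0.21 (permutation p = 0.464), so the value rests on that array. Without the 2 arrays farthest from the median of Ihh, VC- day 7 replicate 2 and VC+ day 7 replicate 1, r was -0.31 (permutation p = 0.298). Without the 2 farthest from their group means, VC- day 7 replicates 2 and 1, it was -0.07 (permutation p = 0.800). The removals by distance from group means were chosen after seeing the data. Ihh with Hhip gave r = 0.20 (p = 0.578, adjusted 0.628) and rho = -0.07 (p = 0.777, adjusted 0.829). Of 16 relations of members with Ihh or with the mean of the smooth muscle markers, none had an adjusted p under 0.05.

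Other genes of both pathways were counted from lists. Of 15 further Hedgehog pathway genes, 8 were tested, and none was called at day 7, in VC+ (median -0.42 against -0.02 over all genes tested) or in VC- (median 0.12 against -0.09). They included Smo, the signal transducer, at -0.48 ± 0.29 in VC+ and 0.11 ± 0.29 in VC-, and Gli2, the main activator, at -0.60 ± 0.34 in VC+ and 0.38 ± 0.34 in VC-. Gas1, a co-receptor, had the lowest value in VC+, -1.40 ± 0.45 (adjusted p = 0.139). None of the 5 further BMP ligands tested, of 10, and none of the 8 receptors and Smads tested, of 10, was called in either genotype. At an unadjusted p under 0.05, in VC+ and in VC-, there were 1 and 0 genes of the Hedgehog pathway list, 1 and 0 BMP ligands, and 2 and 3 receptors and Smads, where 13.7% of all genes tested in VC+ and 32.4% in VC- passed that threshold.

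Among 8 BMP antagonists tested, of 11, 1 was lower and none higher in VC+ at day 7, and 3 were higher and 1 lower in VC-. Over all genes tested, 1.75% were called in VC+ and 10.6% in VC-. At an unadjusted p under 0.05 (limma) there were 3 antagonists in VC+ and 6 in VC-, against 13.7% and 32.4% of all genes tested. The list's median was 0.41 in VC+ and 1.36 in VC-. The mean signal of the list on day 7 replicates 1 to 4 was 5.54, 5.30, 6.04 and 6.79 in VC+, against 5.22 to 5.55 at day 0. In VC- it was 5.42, 7.73, 6.26 and 6.51, against 5.23 to 5.58. VC+ replicates 1 and 2 and VC- replicate 1 were thus within the day 0 range, and they were also the low arrays in gut mesenchyme. The part of mesenchymal cell content in the antagonist values was not tested. Chrdl2, a chordin-like BMP binder, averaged 6.42 at day 7 and 2.35 at day 0 in VC- (4.07 ± 0.97, adjusted p = 0.0185), and it differed by 2.68 ± 0.97 in VC+ (adjusted p = 0.209). Fst, follistatin, which binds activins and some BMPs, rose by 2.95 ± 0.80 in VC- (adjusted p = 0.0314) and differed by 2.25 ± 0.80 in VC+ (adjusted p = 0.194). Nbl1, of the same DAN family as Grem1, rose by 2.05 ± 0.64 in VC- (adjusted p = 0.0469) and stood at 0.18 ± 0.64 in VC+ (adjusted p = 0.950).

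Bambi, a membrane pseudoreceptor that is itself a BMP target, fell in both genotypes, by 1.74 ± 0.43 in VC+ (adjusted p = 0.0480) and by 1.42 ± 0.43 in VC- (adjusted p = 0.0439). Of 4 further BMP target genes tested, of 7, none was called in VC+ and 1 fell in VC-, where 1.75% and 10.6% of all genes tested were called. The gene was Id1, a transcriptional regulator induced by Smads (-1.86 ± 0.53, adjusted p = 0.0369). It stood at -0.42 ± 0.53 in VC+ (adjusted p = 0.807), and Id3 at -0.91 ± 0.29 in VC+ (adjusted p = 0.134) and -0.52 ± 0.29 in VC- (adjusted p = 0.213). At day 2 no gene of these 5 lists, with 8, 5, 8, 8 and 4 genes tested, was called in either genotype. At an unadjusted p under 0.05 (limma) there were 3 in VC+ and 1 in VC-, where 6.57% of all genes tested in VC+ and 4.58% in VC- passed. Between the genotypes at day 7 no gene of these lists was called. Higher in VC+ were 0 of 8 Hedgehog genes (median -0.73 against 0.08 over all genes tested) and 1 of 5 BMP ligands. So were 3 of 8 receptors and Smads, 0 of 8 antagonists and 1 of 4 target genes. At an unadjusted p under 0.05 (limma) there were 3 Hedgehog genes and 1 antagonist, against 14.2% of all genes tested.

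**Figure D5:**
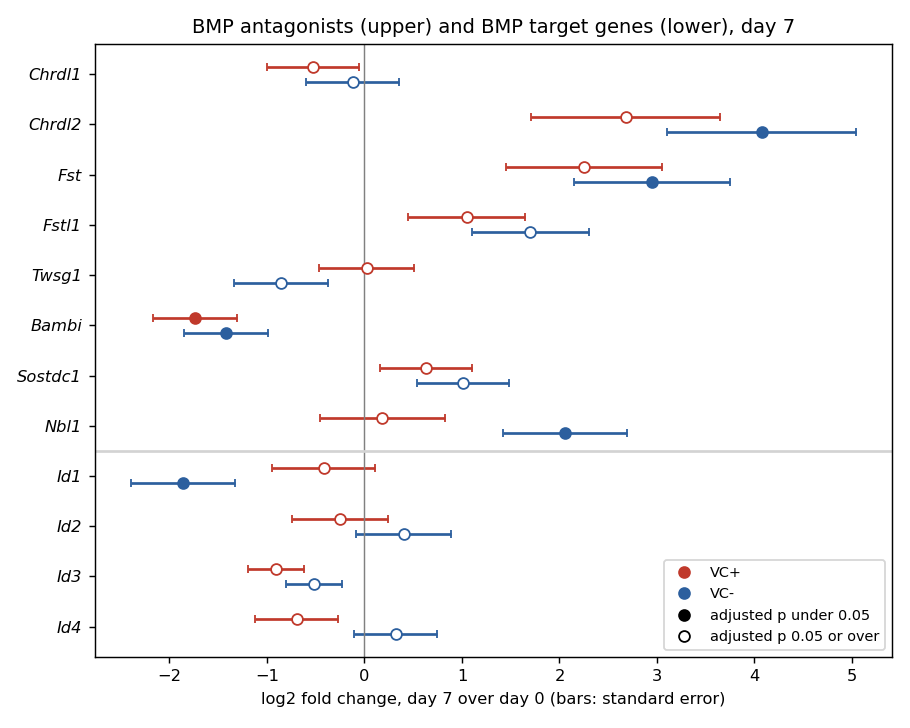
Log2 fold change at day 7 over day 0 with its standard error (bars) for the BMP antagonists (upper) and BMP target genes (lower) tested, VC+ in red and VC- in blue; filled points have an adjusted p under 0.05. Chrdl2, Fst and Nbl1 are filled above 0 in VC-, Id1 below 0 in VC- and Bambi below 0 in both.

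The list of 17 gut mesenchyme genes, of which 13 were tested, had 4 higher genes in VC- and none in VC+ at day 7, with medians of 0.80 in VC+ and 1.45 in VC- (2 genes in VC+ and 7 in VC- at an unadjusted p under 0.05). The 4 were Rspo3, which amplifies Wnt signaling at the crypt base (2.71 ± 0.58, adjusted p = 0.0112), Pdgfrb, a pericyte and fibroblast receptor (2.42 ± 0.57, adjusted p = 0.0175), Wnt5a (2.35 ± 0.55, adjusted p = 0.0171) and Col1a1 (2.24 ± 0.56, adjusted p = 0.0233). In VC+ the same genes had 2.29 ± 0.58 (adjusted p = 0.0505), 1.16 ± 0.57 (adjusted p = 0.378), 0.90 ± 0.55 (adjusted p = 0.517) and 1.41 ± 0.56 (adjusted p = 0.254). Of 12 smooth muscle genes, all tested, 1 was lower in VC- at day 7 and none in VC+ (2 in each at an unadjusted p under 0.05). It was Synpo2, an actin-bundling protein, at 5.21 at day 7 and 8.85 at day 0 in VC- (-3.64 ± 0.89, adjusted p = 0.0218). Beside both lists stand the shares over all genes tested, of which 1.75% in VC+ and 10.6% in VC- were called. At an unadjusted p under 0.05 (limma) the shares were 13.7% in VC+ and 32.4% in VC-.

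Markers of immune cells were higher at day 7, the day at which Hhip was lower. The mean log2 signal of 13 macrophage and monocyte genes was 8.66 to 10.24 at day 7 and 7.20 to 7.43 at day 0 in VC+, and 8.05 to 10.43 at day 7 and 7.35 to 7.52 at day 0 in VC-. Of these 13, all tested, 5 rose in VC+ and 9 in VC-, such as Cd68, a lysosomal protein of macrophages (log2 fold change ± SE by limma 2.90 ± 0.70 in VC+, adjusted p = 0.0404; 3.32 ± 0.70 in VC-, adjusted p = 0.0101) and the Fc receptor gene Fcgr3 (2.48 ± 0.54 in VC+, adjusted p = 0.0216; 2.40 ± 0.54 in VC-, adjusted p = 0.0140). By size of change the other leading genes were Fcgr1 (2.85 ± 0.46) and Cd14 (2.31 ± 0.58) in VC+, and Cd14 (2.28 ± 0.58) and the complement gene C1qb (2.19 ± 0.48) in VC-. The neutrophil mean, over 7 of 8 genes, was 4.99 to 7.48 at day 7 and 2.74 to 2.80 at day 0 in VC+, and 4.37 to 7.66 at day 7 and 2.75 to 2.76 at day 0 in VC-, and 2 of the 3 genes tested rose in each genotype. They were S100a8 (9.16 ± 1.13 in VC+, adjusted p = 0.000242; 7.97 ± 1.13 in VC-, adjusted p = 0.000556) and S100a9 (9.31 ± 1.13 in VC+, adjusted p = 0.000242; 8.28 ± 1.13 in VC-, adjusted p = 0.000475). Of 10 colonocyte genes tested, of 12, none was called in VC+ and 1 was lower in VC-, the chloride exchanger gene Slc26a3 (-2.88 ± 0.89, adjusted p = 0.0452). At an unadjusted p under 0.05 (limma) there were 0 colonocyte genes in VC+ and 2 in VC-. Of 2 squamous epithelium genes tested, of 8, Sprr1a rose in VC+ (2.74 ± 0.68, adjusted p = 0.0462) and Krt10 fell in VC- (-0.77 ± 0.21, adjusted p = 0.0316). For each of these lists the background was 1.75% of all genes tested called in VC+ and 10.6% in VC-. At an unadjusted p under 0.05 (limma) it was 13.7% in VC+ and 32.4% in VC-. The part of these cell types in the Hhip and Grem1 values was not tested.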

How the data were processed

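RNA of homogenised colonic tissue was hybridised to Affymetrix mouse expression arrays. The deposited log2 values were made by the authors with the affy package (R 2.10.1) and the GC-RMA algorithm, which removes background signal, normalizes between arrays and summarizes each probe set. The 22 array medians were 3.41 to 3.55, and 41.7% of values were under 3, here called near background. Of 45101 probe sets, 34958 had a single gene symbol in the platform annotation, 932 had several and 9211 were not listed. Each gene was represented by its most variable probe set (interquartile range), and the 9097 most variable of 18194 genes were tested, following the nsFilter step of the methods. The model had a mean for each of the 6 groups (limma 3.58.1, R 4.3.3) with empirical Bayes moderation. P-values were two-sided, adjusted by Benjamini-Hochberg over all genes tested in a comparison, with a threshold of 0.05, and the procedure was tested on simulated data. Precision is limited by how few arrays a group holds.

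The members, lists and alternatives were chosen with earlier results of these data known. Named genes were all members, the called genes of each list (at most 4 per list and comparison, by size of change), the 3 genes most correlated with Ihh, Gli1, Foxf1 and Grem1, and Prss2 and Xist as properties of arrays. Vil1, Actg2, Myh11, Pparg, Smo, Gli2, Gas1 and Id3 were named outside this rule, after their values were seen. Sequences and coordinates are from RefSeq, GRCm38.p6. Alternatives covered the filter, the choice of probe set, scaling, array weights, moderation, the groups in the fit, a replicate block, Hoxb13 as a covariate, and leaving out arrays.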

Additional observations from a re-analysis of the deposited data

Results flagged for a closer look

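Of 45 groups of 4 or 5 arrays (members and list means), 5 held an array far from the rest, where chance gives about 1 in 20. Ihh was 3.71 on VC- day 7 replicate 2, with the nearest array of the group at 7.16. On that array the colonocyte markers were lowest as well, and their part in the value was not tested. Hhip was 6.08 on VC- day 7 replicate 3, with the nearest at 3.82, and 4.50 on VC+ day 2 replicate 3, with the nearest at 5.98. Gli1 was 2.29 on VC+ day 7 replicate 1, with the nearest at 2.18, all near background. The mean of the neutrophil markers was 3.31 on VC+ day 2 replicate 2, with the nearest at 2.86.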

How the results depend on the processing

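At day 7 against day 0 in VC+ mice, 1 member was called. The count was 2 with array quality weights (Hhip and Grem1), 0 with a replicate block (Hhip -3.13 ± 0.70, adjusted p = 0.0544), 0 among arrays without Xist signal, and 0 to 1 when single arrays were left out. In VC- mice 2 members were called, against 0 when the fit held those groups alone, 0 without the arrays with Prss2 signal, 0 among arrays without Xist signal, and 0 to 4 when single arrays were left out, the lowest count without VC- day 0 replicate 3 and the highest without VC- day 7 replicate 1. At day 2 against day 0 in VC+ mice, array weights gave 3 calls (Hhip, Ptch1 and Grem1) against 0. Between the genotypes, the count of 0 at day 2 became 0 to 2 with single arrays left out, and the count of 0 at day 7 became 3 with array weights (Foxf1, Bmp4 and Bmp2). The interaction at day 2 gave 1 with array weights (Shh) against 0. The causes were not tested, except that fewer arrays enter some of these fits. Over all alternatives and left-out arrays, the change of Hhip ran from -3.67 to -1.46 in VC+ and from -3.78 to -1.48 in VC-, where the mean of all probe sets gave the smallest values, and that of Grem1 in VC- from 3.91 to 5.41. No called value changed sign, and the replicate block changed no other call. Values near 3 and below, as for Gli1, Foxl1 and much of Shh, limit what change could be seen. Samples of equal replicate number were not treated as paired in the main fit, as the methods name no such block. After removal of group means, 18 of 48 pairs of arrays with the same number correlated above 0.1 (mean 0.08), against 36 of 152 other pairs (mean -0.03). Of the 22 arrays, 13 were best matched to an array of their own number. Equal numbers thus went with somewhat higher correlations, and what the numbers stand for is not given in the labels.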

Other observations

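The genes with the pattern most like a member over the 22 arrays, by Pearson r among all genes tested, are given as a description, since arrays of a group share their day and genotype. For Ihh they were Pycrl (r = 0.96), Sema4g (0.96) and Ppargc1b (0.96), and with group means removed r was 0.97, 0.97 and 0.95. Ihh was 3.71 on VC- day 7 replicate 2, far below all other arrays, and Foxf1 was highest on that array, at 10.84. How far these r values rest on that array was not tested. For Foxf1 they were Itpripl2 (0.96), Zcchc24 (0.95) and Lhfp (0.94). For Grem1 they were Cemip2 (0.93), Flot2 (0.91) and Thbs1 (0.90), and for Gli1, near background, Trgv1 (0.90), Sucnr1 (0.84) and Scn2b (0.84). Gli1 was above 3 on VC- day 2 replicate 2 alone.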
